A study of Mus musculus with 11 samples.

Results

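CUT&RUN libraries from E12.5 mouse dorsal root ganglia (DRG) located Runx3 and Brn3a on the DNA of TrkC neurons, by nuclease cuts at the site of an antibody. The regions described here are the Runx3-only distal peaks with many RUNX words. They were chosen from the Runx3 list as peaks that shared 0 bp with any Brn3a-list peak, had their centre more than 1 kb from the transcription start (TSS) of every protein-coding transcript, and held 3 or more RUNX binding sites (RBS). The rule selected 1329 of 25883 nuclear Runx3-list peaks (5.13%), called members below. The cells of every library were GFP-positive neurons sorted from Runx3-BAC-GFP-CB6 transgenic embryos (BacE-GFP), so that all libraries share the transgene. Per the labels there were 3 anti-Runx3, 4 anti-Brn3a, 3 anti-H3K27Ac libraries and 1 library with normal rabbit serum. GFP was driven by a bacterial artificial chromosome with Runx3 regulatory DNA, and the block chr4:134900000-135200000 around Runx3 was left out, with 2 peaks that otherwise met the rule. The Runx3 and Brn3a lists are consensus lists with no height, score or replicate value, so that the read depth is unknown and every interval and test here covers the counting of peaks only.

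RUNX factors bind DNA through the Runt domain, together with the partner subunit Cbfb, at short words such as TGTGGT. Runx3 is the family member on which TrkC neurons, the future proprioceptors that report muscle stretch, depend. Brn3a, encoded by Pou4f1, is a POU-homeodomain factor of most sensory neurons and binds words such as TTAATGA. Distal regions with several copies of a factor's word are often called homotypic clusters. The deposited RBS number equalled the count of TGTGGT and TGCGGT and TGTGGC and TGCGGC on either strand in 25883 of 25883 nuclear peaks.

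The sequences below show the forms in which many RUNX words occurred. They are printed 5′ to 3′ on the forward strand of GRCm38, and the capitals mark RUNX words on either strand, so that a word on the reverse strand reads as its complement, for example ACCACA. The first is the 120-base stretch with most words of the member with most words, in a Btbd9 intron (chr17:30519064-30519183), and was chosen after its values were seen. The second is a whole member in a Tdrd1 intron (chr19:56848029-56848286), and the third a whole member in an Hmga2 intron (chr10:120446921-120447190).

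Btbd9 stretch: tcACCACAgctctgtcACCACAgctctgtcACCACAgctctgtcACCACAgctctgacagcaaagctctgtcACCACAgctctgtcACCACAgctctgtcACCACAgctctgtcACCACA

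Tdrd1 intron: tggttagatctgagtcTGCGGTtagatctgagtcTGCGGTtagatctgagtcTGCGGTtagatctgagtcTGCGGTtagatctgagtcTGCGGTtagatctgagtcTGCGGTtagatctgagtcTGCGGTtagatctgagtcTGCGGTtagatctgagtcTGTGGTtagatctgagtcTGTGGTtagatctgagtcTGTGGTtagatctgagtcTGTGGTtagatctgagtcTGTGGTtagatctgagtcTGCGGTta

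Hmga2 intron: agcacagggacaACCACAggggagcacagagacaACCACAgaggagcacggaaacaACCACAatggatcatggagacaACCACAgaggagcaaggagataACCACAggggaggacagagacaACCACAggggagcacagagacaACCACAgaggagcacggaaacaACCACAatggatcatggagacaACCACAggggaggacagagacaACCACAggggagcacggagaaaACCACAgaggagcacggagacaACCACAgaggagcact

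All of these are tandem arrays, in which a unit with 1 RUNX word is repeated head to tail. The next sequences are members with scattered words, taken as those nearest the TSS of genes of sensory neurons. They lie in an intron of Runx1 (chr16:92822153-92822329), in an intron of Ntrk2 (chr13:59116056-59116239), between genes 153 kb upstream of Ret (chr6:118350470-118350632) and in an intron of Gfra1 (chr19:58386710-58386979).

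Runx1 intron: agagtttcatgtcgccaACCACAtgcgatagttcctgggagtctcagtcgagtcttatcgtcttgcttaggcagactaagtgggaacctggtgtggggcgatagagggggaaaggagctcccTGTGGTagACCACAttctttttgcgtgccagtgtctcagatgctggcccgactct

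Ntrk2 intron: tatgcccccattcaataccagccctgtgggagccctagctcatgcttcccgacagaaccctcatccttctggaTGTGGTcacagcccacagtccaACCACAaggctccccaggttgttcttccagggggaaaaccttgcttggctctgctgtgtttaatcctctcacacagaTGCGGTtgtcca

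Ret upstream: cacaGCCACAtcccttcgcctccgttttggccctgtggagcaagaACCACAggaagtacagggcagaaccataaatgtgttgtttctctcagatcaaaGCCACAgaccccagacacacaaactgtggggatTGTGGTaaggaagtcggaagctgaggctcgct

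Gfra1 intron: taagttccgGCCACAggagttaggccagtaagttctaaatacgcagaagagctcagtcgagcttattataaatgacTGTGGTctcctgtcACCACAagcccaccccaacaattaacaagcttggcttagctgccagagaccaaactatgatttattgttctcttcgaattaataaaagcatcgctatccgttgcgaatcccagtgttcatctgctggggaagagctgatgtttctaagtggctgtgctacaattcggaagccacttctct

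In the 4 printed here the words stand on both strands and at unequal distances. By the same rule a member was named for 6 genes in all, 5 of them with words on both strands, while that of Maf (chr8:114899426-114899572) had its 3 words on the forward strand.

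Most members held just enough words to be selected. There were 906 members with 3 words, 273 with 4, 117 with 5 to 6, 20 with 7 to 9 and 13 with 10 or more, up to 27. The members held 4768 words in 341 kb, or 14.0 words per kb. Density was 7.96 words per kb in the 6602 Runx3-only distal peaks with 1 or 2 words, and 1.82 words per kb in sequence of 200 bp centred 2 kb to each side of the members. Since the rule selected on the number of words, these values describe the members and were not tested. Just inside the threshold, the 906 peaks with 3 words had a median width of 216 bp, 36.5% of them had a Brn3a-list peak within 10 kb and 55.6% lay in introns. Just outside it, the 2405 peaks with 2 words had a median width of 177 bp, with 37.4% and 54.8% for the same shares. Near the distance limit, 29 members had their centre at most 1500 bp from a TSS, while 57 Runx3-only peaks with 3 or more words lay 500 to 1000 bp from one and stayed outside. At the limit of Brn3a overlap, 7 members had a Brn3a-list peak within 100 bp, and 27 distal peaks with 3 or more words shared 1 to 100 bp with a Brn3a-list peak and were not selected.

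**Figure D1:**
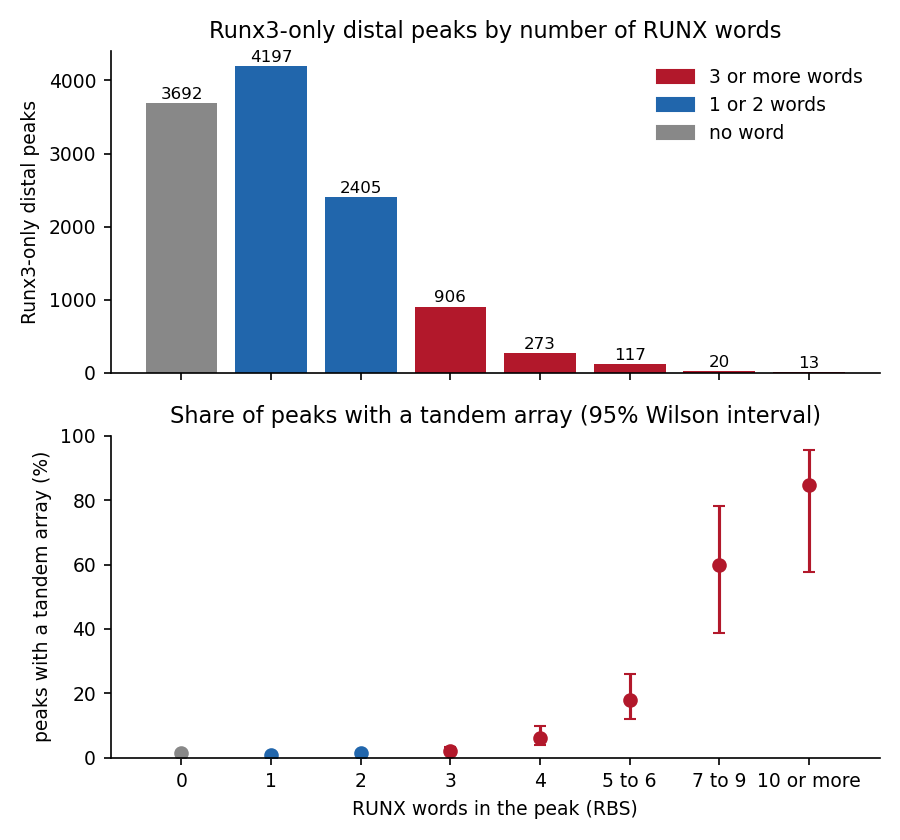
Number of Runx3-only distal peaks (top) and share with a tandem array, in percent with 95% Wilson intervals (bottom), by the number of RUNX words in the peak, with members in red, peaks with 1 or 2 words in blue and peaks with none in grey. Peak numbers fall to 13 at 10 or more words, where 84.6% of peaks had an array.

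The members were wide peaks, but the words were close together within them. Median width was 232 bp (quartiles 170 and 311 bp) in members, against 155 bp (quartiles 111 and 213 bp) in Runx3-only distal peaks with 1 or 2 words. A wider peak has more room for words, so width is tied to the rule and was not tested. The 3 closest words of a member spanned a median of 85 bp (quartiles 54 and 131 bp). All 3 fitted into 100 bp in 818 members (61.6%) and into 50 bp in 284 (21.4%). Within a fixed window of 200 bp around the centre, 983 members (74.0%) held 3 or more words and 22 held none. Of the peaks with 1 or 2 words, 223 (3.38%) held 3 or more in that window, which can reach beyond the peak. Of 2619 flanks of 200 bp, 19 (0.725%) held 3 or more.

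Words were densest at the peak centre. In members, density was 21 and 21.5 words per kb of peak in the 20-bp bins to each side of the centre and fell to 9.40 and 10 words per kb in the bins centred 110 bp away. In peaks with 1 or 2 words the same bins held 13.0 and 12.2 words per kb at the centre and 2.60 and 3.20 words per kb at 110 bp. Both profiles were highest at the centre, and the members' profile stayed above that of their own flanks across the plotted range. Narrow peaks entered only the central bins: at -110 bp, 723 of 1329 members and 1501 of 6602 peaks with 1 or 2 words remained. The word number per peak was also set by the rule. The fall from the centre and the height above flanks and other peaks are thus descriptions and were not tested. Of the members' words, 29.0% lay within 25 bp and 54.0% within 50 bp of the centre.

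**Figure D2:**
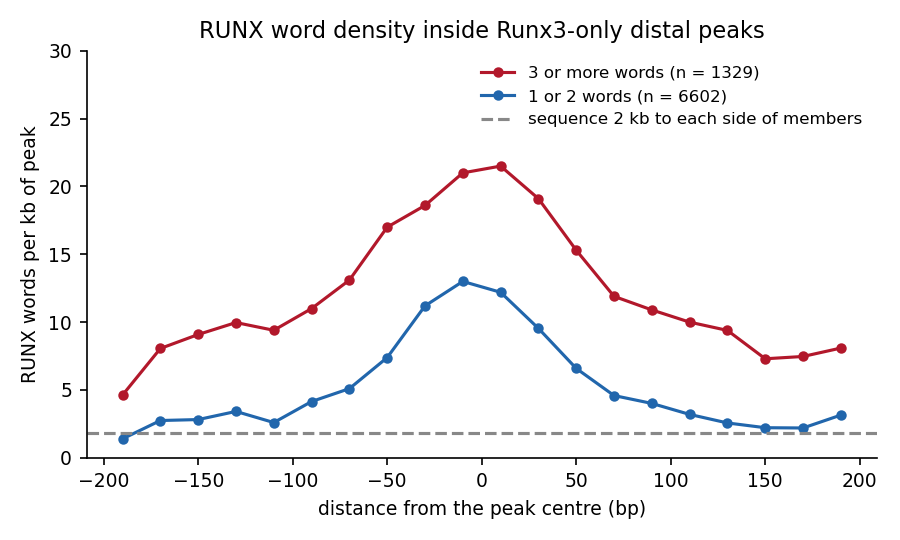
RUNX words per kb of peak by distance from the peak centre in bp, in 20-bp bins, for members (red) and Runx3-only distal peaks with 1 or 2 words (blue), with the density in the members' flanks as a dashed line. Members reached 21.5 words per kb at the centre, against 1.82 words per kb in their flanks.

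The kinds of word differed little between members and peaks with fewer words, and differed more from the flanks. TGTGGT made up 56.1% of the 4768 words in members, 57.9% of the 9007 words in peaks with 1 or 2 words and 47.1% of the 953 words in the members' flanks. TGTGGC made up 27.9% in members, 23.3% in peaks with 1 or 2 words and 42.7% in flanks. TGCGGT, the form with a CpG that ends in T, made up 9.42% in members, 13.0% in peaks with 1 or 2 words and 3.99% in flanks. TGCGGC made up 6.61%, 5.84% and 6.19% in the same order. The word nearest the centre was TGTGGT in 777 of 1329 members (58.5%) and in 3852 of 6602 peaks with 1 or 2 words (58.3%). The base after words ending in T was again T in 40.5% of cases in members and in 43.6% in peaks with 1 or 2 words. Words of 1 peak are not independent, and these shares were described without a test.

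A small group of members held most of their words in tandem arrays, and the share with an array was higher in members with more words. An array was called where a stretch repeated itself in about 3 or more copies with a unit of 4 to 100 bp and at least 80% identity between neighbouring copies. Arrays were found in 80 members (6.02%, 95% interval 4.86% to 7.43%), against 75 of 6602 peaks with 1 or 2 words (1.14%, 0.907% to 1.42%), 59 of 3692 peaks with no word (1.6%, 1.24% to 2.06%) and 16 of 462 co-bound distal peaks with 3 or more words (3.46%, 2.14% to 5.55%). A repeated unit that contains a word raises the word number by itself, and a wider peak can hold a longer array, so these shares carry no test. The share was 2.10% at 3 words, 6.23% at 4, 17.9% at 5 to 6, 12 of 20 peaks at 7 to 9 and 84.6% at 10 or more words (11 of 13). Below the threshold it was 0.953% at 1 word and 1.46% at 2 words. In 58 members (4.36%) at least 50% of the words lay inside the array, and these are called arrayed members. Arrays held 374 of the 4768 words (7.84%).

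Arrayed members were set beside the other members in width and position. Their median width was 194 bp, against 233 bp in the other 1271 members. Introns held 32 of the 58 (55.2%), against 54.2% of the other members. The median distance to a TSS was 36.1 kb in arrayed members and 28.6 kb in the others, and a Brn3a-list peak lay within 10 kb of 37.9% and 36.0%, in the same order. None of these differences was tested. The repeat distance of an array was taken as the one whose array covered most bases, so it can be a multiple of the shortest unit. It was 10 bp or longer in 53 of the 58, and over all 80 arrays its median was 23.5 bp. In the member near Tbca it was 48 bp, although the words of that array followed one another directly. These values are therefore upper limits of the unit length. Soft-masking in the reference marks known repeats, and 34 of the 58 arrayed members had no soft-masked base while 2 were over 60% soft-masked.

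The 10 members with most words show the range of forms. The highest, in an intron of Btbd9, a gene linked to restless legs syndrome in humans, was 678 bp wide (chr17:30518701-30519378) and held 27 words, all on the reverse strand, 25 of them in an array with a unit of 14 bp. The next lay between genes 128 kb from the TSS of Dyrk1a, which encodes a protein kinase (chr16:94698552-94699124). It held 26 words in an array with a unit of 29 bp, 20 on the forward and 6 on the reverse strand. Dpf1, a neuronal subunit gene of a chromatin remodelling complex, had a member 2232 bp from its TSS (chr7:29314605-29315570) with 15 words and no array, the most of any member without one. That region was also the second widest member, at 966 bp.

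Members with 14 words lay in a Tdrd1 intron and 96.3 kb upstream of Prokr2, which encodes a prokineticin receptor (chr2:132481626-132481874). The Tdrd1 member was an array over its whole 258 bp, with a unit of 18 bp, and 9 of its 14 words were TGCGGT. The Prokr2 member had all 14 words on the reverse strand, all TGTGGT. Members with 13 words lay in introns near Rcsd1 (chr1:165679962-165680527) and Tbca (chr13:94689032-94689360), the second made up of 13 TGTGGC words on 1 strand. Members with 12 words lay nearest to Capn5 (chr7:98187395-98187930), Zfp46 (chr4:136268996-136269332) and Hmga2. The Hmga2 array, at a gene for an architectural chromatin protein, repeated a unit of 22 bp over all 270 bp with each of its 12 words on the reverse strand. The member near Tbca lay 624 bp from a Brn3a-list peak, and the other 9 lay between 5.84 and 81.1 kb from one. In all, 8 of these 10 members held an array.

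**Figure D3:**
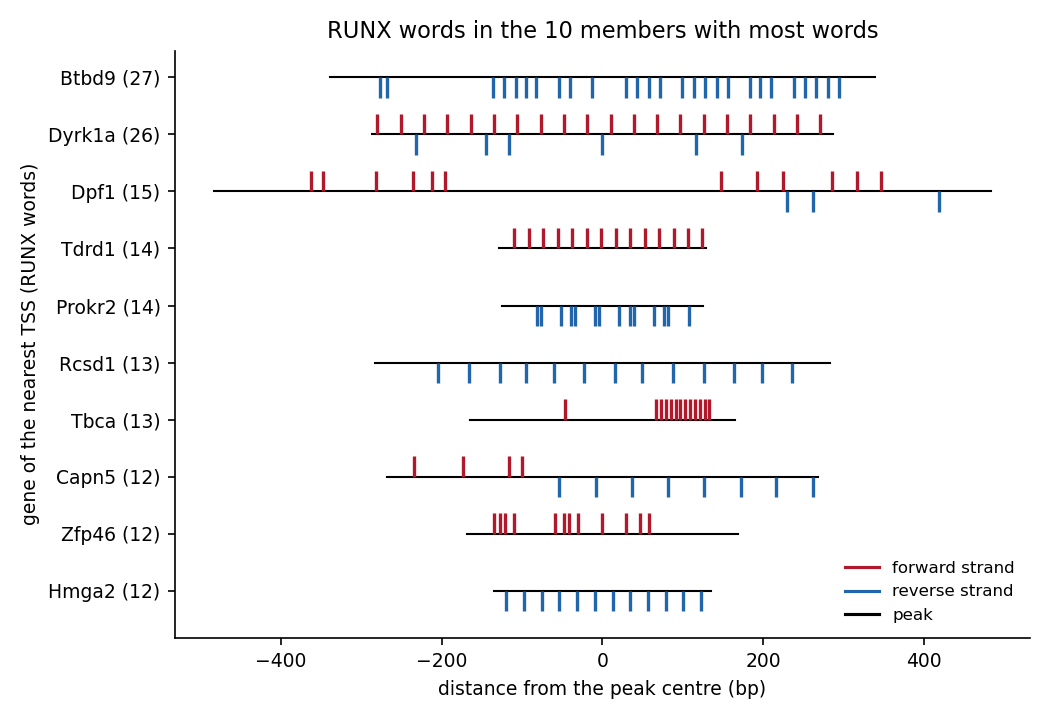
RUNX words on the forward (red, up) and reverse (blue, down) strand of the 10 members with most words, by distance from the peak centre in bp, with the peak as a black line. Words are evenly spaced on 1 strand in the Tdrd1 and Hmga2 members, while the Dpf1 member has 15 uneven words and no array.

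The 3 widest members held 3, 15 and 5 words. Over all Runx3-only distal peaks with 3 or more words, the median width was 216 bp at 3 words, 252 bp at 4, 319 bp at 5 to 6, 371 bp at 7 to 9 and 337 bp at 10 or more. The widest member, in an annotated exon outside coding sequence and untranslated regions, 30.9 kb from a Myo3a TSS, was 1396 bp wide and held 3 words (chr2:22588381-22589776). The third widest, 1032 bp from a TSS of Mex3b, was 948 bp wide and held 5 (chr7:82865828-82866775).

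In members that were not arrayed, neighbouring words were close together, and the share of pairs on the same strand differed from distance to distance. In these 1271 members, 22 of which held an array with fewer of their words, the median distance from the start of a word to the start of the next was 38 bp (quartiles 18 and 72 bp), and 896 of 3103 neighbouring pairs (28.9%) lay within 20 bp. The most frequent distances were 7 bp with 97 pairs, 8 bp with 77 pairs, 13 bp with 70 pairs, and 9 and 11 bp with 69 pairs each. Both words were on the same strand in 77 of the 97 pairs at 7 bp, in 54 of 69 at 9 bp and in 56 of 69 at 11 bp, but in 22 of 48 at 10 bp, 36 of 70 at 13 bp, 18 of 45 at 14 bp, 22 of 44 at 15 bp and 17 of 48 at 16 bp. At 4 and 5 bp, where words overlap, 0 of 28 and 26 of 26 pairs were on the same strand. The letters of the words fix both of these outcomes, so they show no preference. Over all distances the same strand was shared by 1764 of 3103 pairs (56.8%). The 2405 Runx3-only distal peaks with 2 words, which the rule did not take, had 1396 pairs on the same strand (58.0%), with 45 of 55 at 7 bp and 54 of 61 at 9 bp. In these peaks the same strand was shared by 14 of 32 pairs at 10 bp, 21 of 42 at 13 bp and 15 of 32 at 15 bp. The low shares at 14 and 16 bp did not recur there, with 24 of 42 and 25 of 34. In the 58 arrayed members the same strand was shared by 306 of 336 pairs (91.1%), and 51 of the 58 (87.9%) had every word on 1 strand, against 377 of 1271 other members (29.7%). The pairs were counted without a test, since pairs in 1 peak are not independent.

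**Figure D4:**
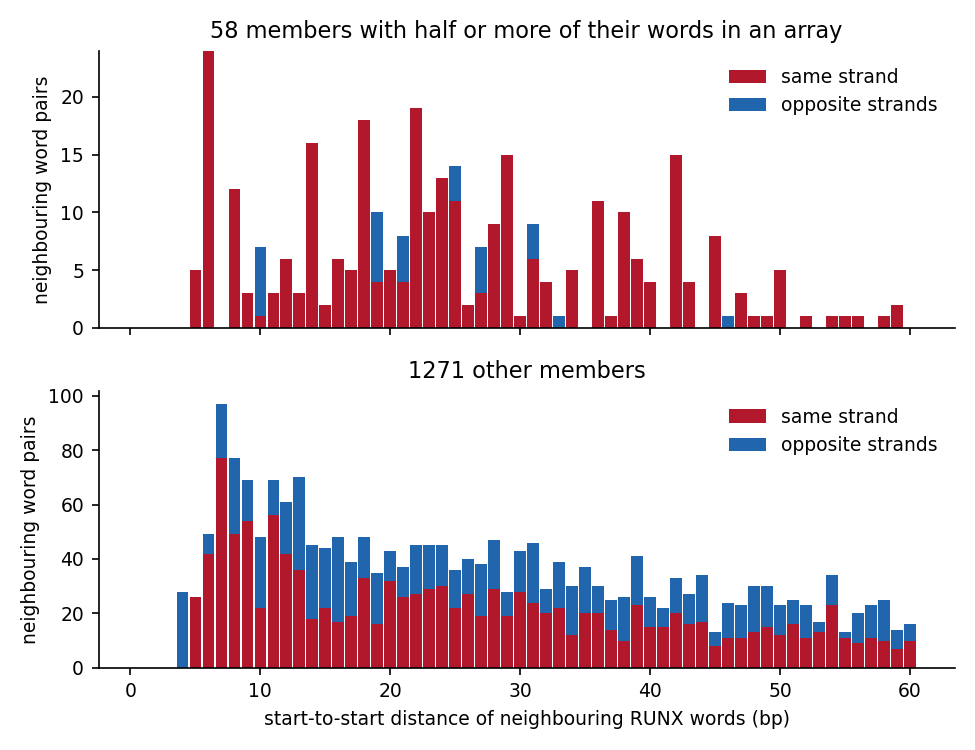
Number of neighbouring RUNX word pairs by the distance between their starts in bp, with pairs on the same strand in red and on opposite strands in blue, in arrayed members (top) and the other members (bottom). Same-strand pairs make up 306 of 336 pairs in arrayed members and 1764 of 3103 in the other members.

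Members lay mostly in introns and intergenic DNA, and no share of position differed past the threshold from that of Runx3-only distal peaks with 1 or 2 words. Introns held 721 of 1329 members (54.3%, 95% interval 51.6% to 56.9%), against 3484 of 6602 peaks with 1 or 2 words (52.8%, 51.6% to 54.0%). The odds ratio was 1.06 (95% interval 0.941 to 1.20, Fisher's exact test, two-sided, adjusted p = 0.514). Intergenic DNA held 517 members (38.9%), coding exons 29, untranslated regions 22 and other exons 40. Members lay a median of 29.0 kb from the nearest TSS (quartiles 10 and 77.0 kb), against 30.7 kb (quartiles 10.5 and 82.5 kb) for peaks with 1 or 2 words. Beyond 100 kb of a TSS lay 19.7% of members, against 21.4% of peaks with 1 or 2 words (odds ratio 0.899, 0.773 to 1.04, exact adjusted p = 0.485). A Brn3a-list peak lay within 10 kb of 479 members (36.0%), against 37.9% of peaks with 1 or 2 words (odds ratio 0.925, 0.817 to 1.05, exact adjusted p = 0.485). Median GC content was 52.2% in both sets and 46.5% in the flanks of both. Over 60% soft-masked were 3 members (0.226%), against 15 peaks with 1 or 2 words (0.227%). The share was low in peaks with no word as well (0.840%), so it was not particular to members. Whether the deposited lists had been filtered for repeats is not known here.

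No word of another transcription factor differed past the threshold between members and peaks with 1 or 2 words. Several E-box, EBF and SP/KLF words had higher shares in members than in their flanks, while some words rich in A and T had lower ones. The flanks were compared without a test. In the 200 bp around the centre, the Brn3 word TTAATGA was in 27 members (2.03%, 95% interval 1.40% to 2.94%), against 3.30% of peaks with 1 or 2 words and 2.86% of the members' flanks. Its odds ratio was 0.607 (0.389 to 0.913, exact unadjusted p = 0.0146, adjusted p = 0.286). CCCNNGGG, the word of the early B-cell factor (EBF) family, was in 11.6% of members, against 13.9% of peaks with 1 or 2 words (odds ratio 0.813, 0.673 to 0.976, exact adjusted p = 0.286). In the members' flanks it was in 4.51%. The E-box CAGCTG, bound by bHLH factors, was in 19.6% of members and 19.9% of peaks with 1 or 2 words, and in 9.66% of the members' flanks. GGGCGG, the word of SP and KLF factors, was in 8.80% of members and 9.85% of peaks with 1 or 2 words, and in 3.63% of flanks. TAATTA, a homeodomain word, was in 3.99% of members and 3.86% of peaks with 1 or 2 words, and in 5.12% of flanks. The GATA word AGATAA was in 6.85% of members and 9.62% of flanks, and the octamer ATGCAAAT in 0.677% and 1.18%. The CRE word TGACGT was in 3.16% of members and 1.72% of flanks. Flanks had a lower GC content than members, and its part in these differences was not tested. The other E-box words were CAGATG, in 22.3% of members and 19.9% of peaks with 1 or 2 words, and CACGTG, in 4.21% and 4.74%.

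Of the 23 shares compared between members and peaks with 1 or 2 words (4 of position, 1 of Brn3a distance, 1 of repeats and 17 of words), 0 passed an adjusted p of 0.05 by Fisher's exact test and 2 had an unadjusted p under it. The remaining words, for octamer, ETS, AP-1, CRE, SOX, GATA, NFI, MEF2 and TEAD factors, had odds ratios from 0.655 to 1.11. A word match describes the letters only and is no sign of binding, and a missed threshold does not show that the sets are alike.

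**Figure D5:**
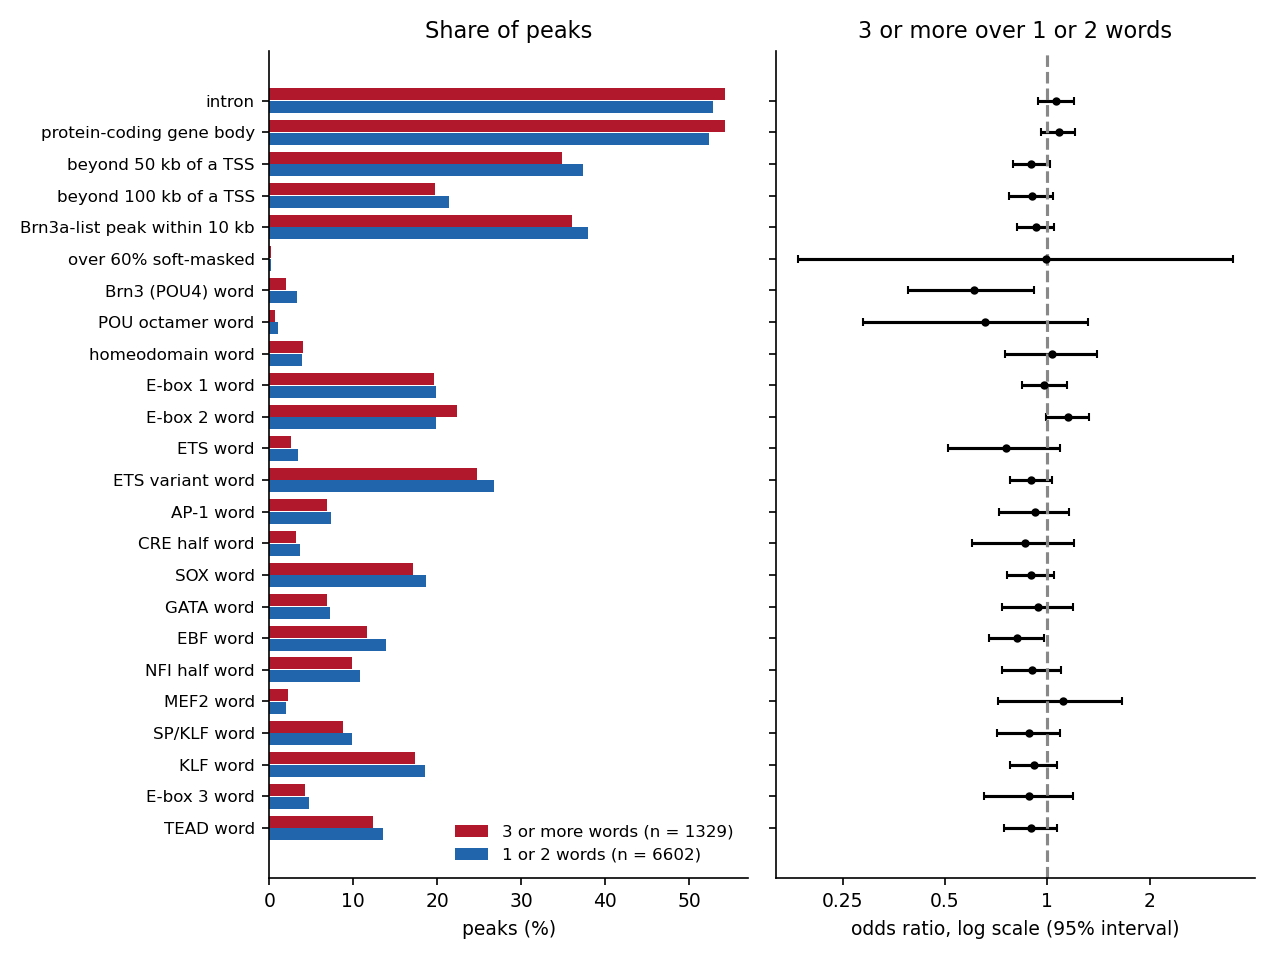
Percent of peaks with each property or word (left) in members (red) and Runx3-only distal peaks with 1 or 2 words (blue), and odds ratios with 95% intervals on a log axis (right, members over peaks with 1 or 2 words). E-box 1, 2 and 3 are the 3 E-box words in the order CAGCTG and CAGATG and CACGTG, and the KLF word CCACCC, which shares bases with a RUNX word, was not tested.

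Against distal peaks that Runx3 and Brn3a shared and that also held 3 or more words, the members lay nearer to a TSS. Such co-bound peaks numbered 462, so that members were 74.2% of the 1791 distal Runx3-list peaks with 3 or more words. Beyond 50 kb of a TSS lay 34.8% of members (32.3% to 37.4%), against 53.5% of the co-bound peaks (48.9% to 58.0%), with an odds ratio of 0.466 (0.373 to 0.580, exact adjusted p = 5.63e-11). Beyond 100 kb lay 19.7% of members and 33.5% of co-bound peaks (odds ratio 0.487, exact adjusted p = 3.47e-08). This trait was not particular to members. Of the other Runx3-only distal peaks, 37.4% with 1 or 2 words and 36.5% with no word lay beyond 50 kb. Protein-coding gene bodies held 54.2% of members and 48.1% of co-bound peaks (odds ratio 1.28, 1.03 to 1.59, exact adjusted p = 0.177). TTAATGA was in 2.03% of members and 7.14% of co-bound peaks, and TAATTA in 3.99% and 8.87%. The sets were parted by Brn3a overlap, so these words, 1 of Brn3 and 1 of homeodomain factors, are described without a test. Median width was 232 bp in members, against 366 bp in co-bound peaks. The part of width in the differences of position was not tested. The share of distal peaks that was co-bound was 20.4% at 5 to 6 words and 38.6% at no word, values fixed in part by the rule and given as a description.

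Against the 3692 Runx3-only distal peaks with no RUNX word, the members lay more often in genes. Introns held 54.3% of members and 47.9% of peaks with no word (odds ratio 1.29, 1.13 to 1.46, exact adjusted p = 0.000950), and protein-coding gene bodies 54.2% and 47.5% (odds ratio 1.31, exact adjusted p = 0.000731). Peaks with no word were narrower, with a median of 113 bp.

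Members were spread over the genome with few groups. Within 10 kb of another member lay 72 members (5.42%), in 35 groups of at most 3. A group of 3 lay near Agap1 within 5.77 kb (chr1:89601042-89606812), and another near Lgalsl within 12.7 kb (chr11:20909597-20922292). A pair with 8 words in all lay within 1.37 kb at Sp7, which encodes the osteoblast factor osterix (chr15:102376866-102378237). The groups near Agap1 and Lgalsl were named after their values were seen, being the 2 groups of 3. Among autosomes, members were between 9.69% (chromosome 2) and 15.0% (chromosome 19) of the Runx3-only distal peaks, against 11.4% over all chromosomes.

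Members were assigned to protein-coding genes by regulatory domains. A domain ran from 5000 bp before to 1000 bp after the TSS, and reached out by at most 1000 kb until it met the domain of the next gene. Of 21911 genes, 2059 (9.40%) had a member in their domain, and 347 had 2 or more. Of the members, 1187 lay in 2 or more domains, so that neighbouring genes share them. The 10 genes with most members were Gm26897 with 8, Dbx1 with 6, and Atrnl1, Gfra1, Cryba4, Myo18b, Runx1, Sez6l and Plxna1 with 5 each, followed by Znhit6 with 4. Their domains ran from 356 kb (Znhit6) to 1114 kb (Runx1), against a median of 89.7 kb over all genes. Together these domains held 40 distinct members. The 5 members of Gfra1, which encodes a GDNF co-receptor, were the same as those of its neighbour Atrnl1, and the 5 of Cryba4, a lens crystallin gene, were also among the 8 of Gm26897. Myo18b and Sez6l shared 3. The domain of Znhit6 held 4 Runx3-only distal peaks, all of them members. The domain of Dbx1, a homeobox gene of spinal interneurons, held 14, of which 6 were members. Over all genes members were 11.5% of such peaks, but the genes named here were chosen for their many members.

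Runx1, the RUNX factor of nociceptors, had the most members in the RUNX family list. Its domain of 1114 kb held 5 members with 17 words, 21 Runx3-only distal peaks and 40 Runx3-list peaks of any kind. The member nearest its TSS, printed above, lay 3908 bp downstream of the TSS in an intron, with 3 TGTGGT words and 5.22 kb from a Brn3a-list peak. Of 12 matched genes of the RUNX family and cofactors, 4 had a member (33.3%), the others being Tle4 with 4, Tle1 with 1 and Tle3 with 1, genes of Groucho co-repressors. The Tle3 member lay 381 kb upstream of its TSS. Cbfb, which encodes the partner subunit of all RUNX factors, had 3 Runx3-only distal peaks and 0 members. Members were 11.5% of such peaks over all genes, so 0 of 3 does not set Cbfb apart. The block left out around Runx3 keeps Runx3 itself from the count of this list.

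Of 21 genes for ligands and receptors of the neurotrophin and GDNF families, 5 had a member (23.8%), with 5 for Gfra1, 2 for Gfra2, the neurturin co-receptor, and 2 for Ntrk2, the TrkB receptor. The Ntrk2 member nearest the TSS lay 310 kb downstream of it, in an intron, with 2 TGTGGT words and 1 TGCGGT word. Ret, the signalling receptor of the GDNF family, had 1 member with 4 words. That member lay nearer to a TSS of Bms1, at 68923 bp. By the nearest TSS, and with an extension by at most 100 kb, Ret had 0 members. Ntrk3, which encodes TrkC itself, had 3 Runx3-only distal peaks and 0 members, and 1 co-bound peak with 3 or more words. Members were 11.5% of Runx3-only distal peaks over all genes, so 0 of 3 does not set this gene apart.

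Among proprioceptor genes, 4 of 20 had a member, including Sema5a, a semaphorin gene, Pcdh8, a protocadherin gene, and Syt2, which encodes a calcium sensor of synaptic vesicles, with 1 each. Etv1, Piezo2 and Kirrel3 had 5, 2 and 3 Runx3-only distal peaks in their domains and 0 members. These are few peaks beside a share of 11.5% members over all genes, and Kirrel3 also had 2 co-bound peaks with 3 or more words. Among low-threshold mechanoreceptor genes, 8 of 15 had a member (53.3%, 95% interval 30.1% to 75.2%), led by Gfra1 with 5, Nr5a2, an orphan nuclear receptor gene, with 3 and Gfra2 with 2. This count depended on how far domains reached. By the nearest TSS 5 of the 15 had a member, and with an extension by at most 100 kb 3 of 15, where Gfra1 kept 1 member and Nr5a2 had 0. Nociceptor and thermoceptor genes had a member in 3 of 17 cases (17.6%), namely Runx1 with 5, Gal, the galanin gene, with 2 and Trpm8, the cold channel gene, with 1.

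Sensory neuron transcription factors had a member in 10 of 45 cases (22.2%), led by Eya2, which encodes a transcriptional co-activator, with 3, Lmx1b, a LIM-homeodomain gene, with 2 and Maf with 2. The Maf member nearest the TSS lay 808 kb from it, inside an intron of Wwox. Pou4f1 and Isl1 had 3 and 2 Runx3-only distal peaks and 0 members. With so few peaks, beside 11.5% members over all genes, these counts do not set either gene apart. Pou4f1 also had 1 co-bound peak with 3 or more words. Axon guidance and adhesion genes had a member in 10 of 36 cases (27.8%), led by the semaphorin receptor genes Plxna1 with 5, Nrp2 with 2 and Nrp1 with 2. Ion channel and synaptic genes had a member in 8 of 34 cases (23.5%), led by Cacna2d2, a calcium channel subunit gene, and Shank2, a synaptic scaffold gene, with 3 each.

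Pan-neuronal genes had a member in 4 of 20 cases, led by the splicing factor genes Rbfox3 with 2, Rbfox1 with 1 and Nova1 with 1. Lists of other cell types were counted in the same way. Glial and neural crest genes had a member in 4 of 20 cases (Sox2 with 3, Sox9 with 2 and Pou3f1 with 1). Skeletal RUNX genes had one in 4 of 14 cases (28.6%; Sp7 and Vegfa with 2 each and Alpl with 1). Endothelial, mesenchymal and erythroid genes had one in 5 of 20 cases (among them Col3a1 and Erg with 1 each). Immune genes had one in 5 of 40 cases (Il10ra, Rag2 and Bcl11b with 1 each), and muscle and liver genes in 1 of 20 (Ckm).

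These shares lay above the 9.40% of all genes in 13 of the 14 lists, but the listed genes also have longer domains. The median domain was 261 kb over the 318 matched listed genes and 89.7 kb over all genes. Counted per Mb of domain, members numbered 1.32 for the RUNX family, 1.76 for low-threshold mechanoreceptor, 1.86 for nociceptor and thermoceptor and 1.87 for skeletal RUNX genes, against 0.546 over all genes. Proprioceptor genes had 0.295, pan-neuronal genes 0.355 and muscle and liver genes 0.312 members per Mb. Near or below the value over all genes were also sensory neuron transcription factor (0.556), axon guidance (0.447) and ion channel and synaptic genes (0.535). The remaining lists ran from 0.576 (immune) to 0.977 (neurotrophin and GDNF). As a share of the Runx3-only distal peaks in the same domains, members were 22.1% for low-threshold mechanoreceptor genes (17 of 77), 22.2% for nociceptor and thermoceptor genes (8 of 36), 14.3% for skeletal RUNX genes, 13.4% for the RUNX family and 6.45% for proprioceptor genes (4 of 62), against 11.5% over all genes. Over the other lists this share ran from 6.25% (muscle and liver) to 16.7% (neurotrophin and GDNF, and endothelial, mesenchymal and erythroid genes). Single genes carried much of the shorter lists. Runx1 gave 5 of the 8 members of the nociceptor and thermoceptor list and is also in the RUNX family list. Without it, in an alternative chosen after seeing the data, these lists had 0.939 and 0.829 members per Mb, and members were 3 of 15 and 6 of 61 of their Runx3-only distal peaks. Without Gfra1, the low-threshold mechanoreceptor list had 1.37 members per Mb and 12 of 64 peaks. The neurotrophin and GDNF list, which Gfra1 also leads, then had 0.579 members per Mb and 6 of 53 peaks (11.3%), near the values over all genes. Without Sp7, the skeletal RUNX list had 1.26 members per Mb and 4 of 37 peaks (10.8%), below the share over all genes. By the nearest TSS and with an extension by at most 100 kb, a member was found for 3 and 2 of 12 RUNX family genes, 5 and 6 of 45 sensory neuron transcription factor genes, 7 and 5 of 36 axon guidance genes and 3 and 3 of 34 ion channel and synaptic genes. The counts are small, the lists share genes (16 genes are in 2 or more lists) and no list was tested.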

How the data were processed

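Sorted E12.5 neurons were profiled by CUT&RUN. Of tools, the submitters' processing notes list Bowtie, cutadapt and MACS2, and of builds GRCm38 and mm10, with versions and settings not given in the sources used here. Peak positions were deposited by the authors as consensus lists, kept per the file headers when found in at least 2 libraries, and the deposited Runx3 table adds the whole number of RBS per peak. The table for H3K27Ac held the Runx3 positions and was not used, no serum list was analysed here, and 2 mitochondrial peaks were left out.

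Members and lists were chosen with earlier results of these data known. Peaks were compared with the GRCm38.p6 sequence and GENCODE M21 in Python 3.11.15 (numpy 2.4.6, pandas 2.3.3, scipy 1.17.1, matplotlib 3.10.9). Shares have Wilson 95% intervals. Fisher's exact test, two-sided, was adjusted by Benjamini-Hochberg over the 23 shares of each set of compared peaks (20 for co-bound peaks). Scripts were tested on simulated data. Named regions were the 10 members with most words, the 3 widest and those nearest the TSS of 13 chosen genes, and named genes the 10 with most members and the 3 leading genes of each list, some of which are not reported here. Of 320 listed symbols, 318 were matched. Alternatives changed the TSS distance, word number, Brn3a distance, width, repeats, compared peaks, window, flanks and gene domains.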

Additional observations from a re-analysis of the deposited data

How the results depend on the processing

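No paired analysis was possible because the deposited lists are consensus lists with no value per replicate, and for the same reason no library could be left out in turn. The 23 comparisons with peaks of 1 or 2 words passed no threshold with a TSS distance of 2500 bp, with 4 or more words (423 members), with Brn3a-list peaks at least 500 bp away, in peaks of at least 176 bp (968 members) and, for words, in a window of 300 bp. The 22 comparisons that remain without repeat peaks also passed none. The 23 comparisons passed none without arrayed peaks, an alternative chosen after seeing the data. Against peaks with no word, the odds ratio was 1.29 for introns, 1.31 for gene bodies, 0.601 for CCGGAA and 0.701 for GGGCGG, each past the threshold. Against co-bound peaks with 3 or more words it was 0.466 beyond 50 kb and 0.487 beyond 100 kb. TTAATGA and TAATTA were not tested there, since Brn3a overlap parts the sets. The soft-masked share had no defined odds ratio there (3 of 1329 members against 0 of 462 co-bound peaks, exact adjusted p = 0.765). Genes with a member numbered 2059 by domains, 1164 by the nearest TSS and 1301 with extension by at most 100 kb. Members with a neighbour numbered 72 within 10 kb and 206 within 50 kb. Neighbouring words shared a strand in 60.2% of pairs, and in 56.8% without arrayed members. The lists limit precision, since they hold neither depth nor replicate spread.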
